A study of Homo sapiens with 4 samples.

Results

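The genes described here are 36 DNA repair and damage checkpoint genes, taken by symbol from a fixed list and read in every library of the series, out of 18650 loci with at least 1 fragment. By pathway they are 11 genes of homologous recombination, 3 of mismatch repair, 8 of excision and single-strand break repair, 3 of end joining, 4 of the Fanconi pathway and 7 of damage signalling and checkpoint control. Whole-transcriptome RNA was sequenced from HT-29, a human colorectal cancer line, and NCM460, a line established from human colon mucosa and used in the study as the non-cancer colon line. Each line was compared between a control and 24 h with sturgeon chondroitin sulfate (SCS) at 100 μg/mL, a sulfated polysaccharide prepared from sturgeon, and the study asked how the treated cells changed their gene expression. Each of the 4 conditions had a single library, so no test between conditions could be made, and the condition and the library cannot be told apart. The intervals given below are 95% exact (Clopper-Pearson) intervals that cover counting error only.

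Cells keep separate machines for separate lesions. Double-strand breaks are rejoined directly by end joining or copied from a sister chromatid by homologous recombination, the Fanconi pathway unhooks crosslinked strands, mismatch repair corrects replication errors, and excision pathways replace damaged bases or nucleotides. The kinases ATM and ATR signal the damage to checkpoint proteins that hold the cell cycle, and many genes of recombination, mismatch repair and the Fanconi pathway are transcribed mainly in dividing cells, under E2F factors.

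The libraries were shallow, with 1654764 and 1605372 fragments in HT-29 control and SCS and 1347854 and 1156568 in NCM460 control and SCS. Mitochondrial transcripts took 35.8% and 13.8% of the HT-29 libraries and 62.3% and 46.3% of the NCM460 libraries, so the nuclear fragments numbered 1061700, 1383424, 507692 and 621582 in the same order. The 36 genes together held 3322, 2757, 1248 and 1784 of these, with a median of 47.5, 40, 10 and 25 fragments a gene. Epithelial markers EPCAM, CDH1, KRT8, KRT18 and KRT19 were above 0 in every library. KRT20, VIL1, LGALS4 and the locus that holds CEACAM5, markers of differentiated colon epithelium that all had fragments in HT-29, were at 0 in both NCM460 libraries. CDX2 was at 0 in both HT-29 libraries and had 14 and 12 fragments in NCM460, and SPARC, a mesenchymal marker, was at 0 in HT-29 and had 65 and 102 in NCM460. The other mesenchymal markers searched were low or absent in NCM460. VIM had 7 and 4 fragments there, ZEB1 4 and 2, ZEB2 0 and 1, FN1 8 and 16 and COL1A1 8 and 17. CDH2, COL1A2 and COL3A1 were above 0 in no library.

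Levels were put on 1 scale as CPM (fragments relative to the size of the library) with TMM factors, which scale libraries to each other through the bulk of the loci, and log2 fold changes are SCS over control with a prior count of 2. A gene is written as having risen or fallen where the change exceeded 1.5-fold and the counting interval left out 0. In HT-29, 3 of the 36 genes rose and 17 fell with SCS, while 16 were not called. Among all 12168 loci compared in that line, 16.8% rose and 14.8% fell, so the share of the genes that fell, 47.2%, was above the background and the share that rose, 8.33%, was below it. The median log2 fold change of the 36 genes was -0.60, beside 0.07 for all loci. Among loci averaging 5 CPM or more, a level nearer to that of these genes, 17.3% fell. Summed over the genes, the level went from 1624 to 1147 CPM, a log2 ratio of -0.50 (-0.57 to -0.43). This sum holds the CHEK1 and XRCC1 loci, whose fragments are listed together with other genes. Without them the log2 ratio was -0.72 (-0.81 to -0.64). Library scaling moved this split and that of all loci. With total counts alone 7 genes rose and 13 fell, where 3148 of 12658 loci rose and 1115 fell. With mitochondrial fragments left out of the totals 1 gene rose and 18 fell, where 1500 of 12314 loci rose and 2293 fell.

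In NCM460, 11 of the 36 genes rose and 5 fell, against 15.4% and 13.8% of the 12657 loci compared, and the median was 0.17 beside 0.03. The summed level was 1602 and 1650 CPM, a log2 ratio of 0.04 (-0.06 to 0.15). Without the CHEK1 and XRCC1 loci the log2 ratio was 0.12 (0.0052 to 0.23). Fold changes in NCM460 followed the GC content of the transcript, over all loci as well as over these genes. With that trend subtracted, 2 of the 36 genes rose and 2 fell, against 6.16% and 5.64% of 12600 loci, so 9 of the 11 rises and all 5 falls were no longer called. With total counts alone 15 genes rose and 0 fell, where 3945 of 12096 loci rose and 248 fell. For HT-29 the same subtraction left 2 genes higher and 19 lower, against 14.4% and 16.0% of loci, or 30.5% in both directions. The share of GC content in the NCM460 changes, as against the treatment, was not tested.

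**Figure D1:**
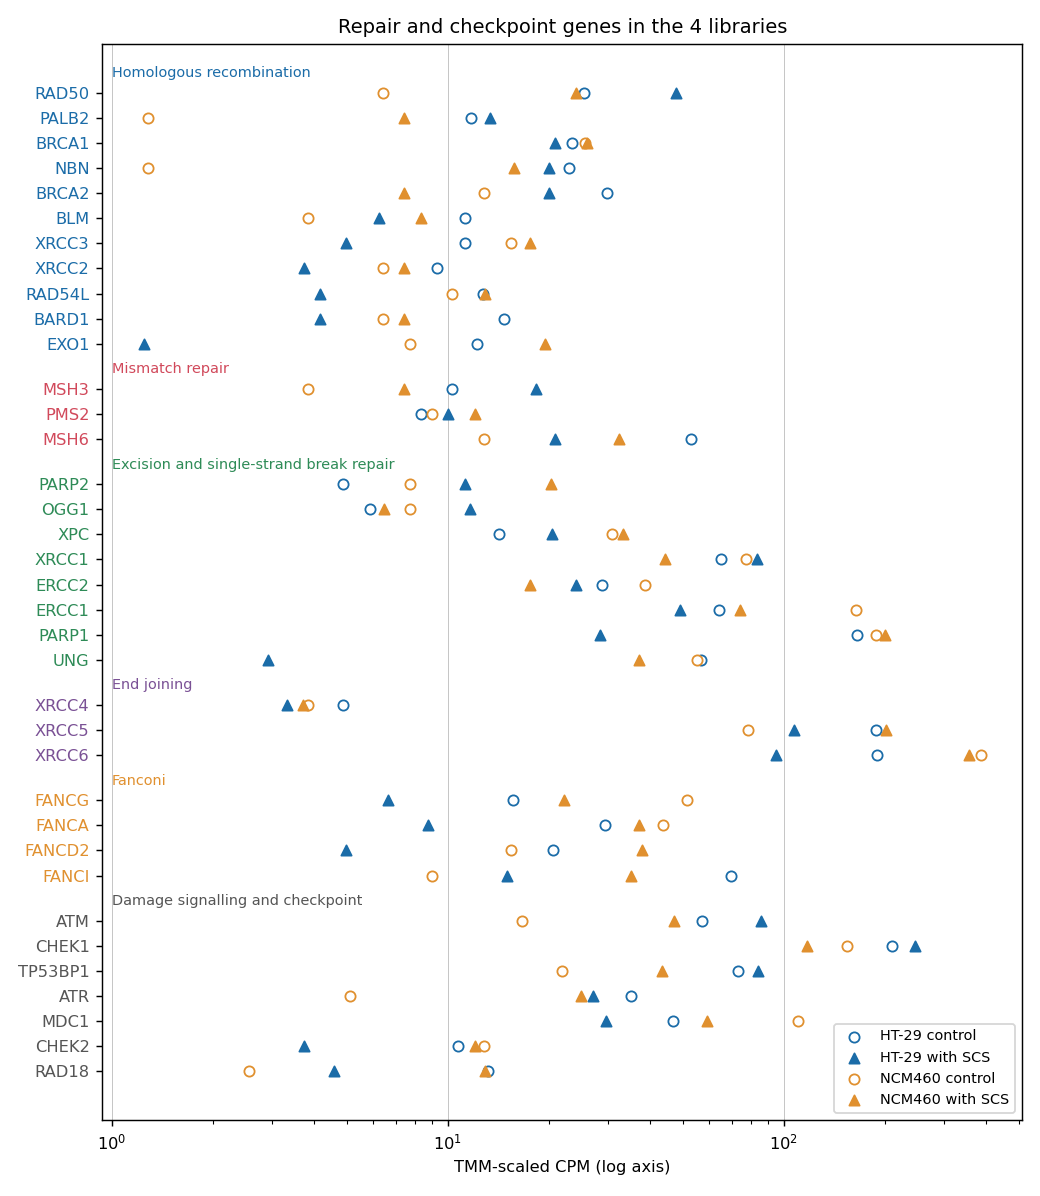
Level of each of the 36 genes in the 4 libraries, as TMM-scaled CPM on a log axis, grouped by pathway and ordered within it by the HT-29 change. Open circles are controls, triangles SCS and colours the lines. UNG, EXO1 and PARP1 stand farthest apart between the HT-29 libraries, and CHEK1 shares its value with a neighbouring gene.

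All 4 genes of the Fanconi pathway fell in HT-29, where 14.8% of all loci fell. Their median log2 fold change was -1.71, and their summed level went from 135 to 35.4 CPM. FANCI (GRCh38 chr15:89243949-89317261), which forms with FANCD2 the clamp that is ubiquitinated at a crosslink, had 143 fragments in the HT-29 control and 36 with SCS, and 7 and 38 in NCM460. It fell by 2.13 on the log2 scale in HT-29 (-2.79 to -1.69) and rose by 1.83 in NCM460 (0.79 to 3.38). FANCD2, its partner, had 42 and 12 fragments in HT-29 and 12 and 41 in NCM460, with changes of -1.80 (-3.10 to -1.09) and 1.23 (0.34 to 2.36) on the log2 scale. These partners thus fell together in HT-29 and rose together in NCM460. With the GC trend subtracted FANCI stayed called in NCM460, at 1.15, and FANCD2, at 0.63, did not. FANCA and FANCG belong to the core complex that carries out the ubiquitination. FANCA had 60 and 21 fragments in HT-29 and 34 and 40 in NCM460, with log2 fold changes of -1.61 (-2.54 to -1.01) and -0.23 (-0.94 to 0.46). FANCG had 32 and 16 in HT-29 and 40 and 24 in NCM460, and fell in both lines, by 1.09 (-2.20 to -0.32) and by 1.17 (-2.00 to -0.45). Only the HT-29 call for FANCG held with the GC trend subtracted. FANCA shares 22.4% of its exon bases with ZNF276 on the opposite strand, and the kit did not mark the strand, so reads of such partners cannot be told apart here or for the overlaps given further on.

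Excision and single-strand break repair held the largest falls among the 36 genes and also genes with no call, so its median in HT-29 was 0.05. UNG (chr12:109097574-109110992), the glycosylase that removes uracil from DNA, had 116 fragments in the HT-29 control and 7 with SCS, and 43 and 40 in NCM460. It fell by 3.79 on the log2 scale in HT-29 (-5.63 to -3.19), which was the lowest value of the 36, and was not called in NCM460, at -0.56 (-1.24 to 0.08). PARP1 (chr1:226360691-226408079), the polymerase that marks strand breaks with poly(ADP-ribose), had 337 and 68 fragments in HT-29 and 146 and 217 in NCM460. Its log2 fold changes were -2.49 (-2.94 to -2.16) and 0.10 (-0.21 to 0.41). PARP1 is also on a list of genes that the study chose from these same libraries, so its fall is not independent evidence of that choice. PARP2, the closest relative of PARP1 in this pathway, moved the other way in HT-29. Its fragments were 10 and 27 in HT-29 and 6 and 22 in NCM460, and it rose in both lines, by 1.02 (0.11 to 2.41) and by 1.27 (0.05 to 2.99). After subtraction of the GC trend PARP2 had no call in NCM460.

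The other members of the excision group were not called in HT-29. XRCC1, a scaffold of single-strand break repair, had 133 and 200 fragments in HT-29 and 60 and 48 in NCM460, with log2 fold changes of 0.35 (0.03 to 0.68) and -0.78 (-1.37 to -0.22). Its values are those of a locus listed together with IRGQ and L34079.2. ERCC1, a subunit of the nuclease that cuts 5′ of a bulky lesion, had 131 and 118 fragments in HT-29 and 128 and 80 in NCM460. ERCC2, a helicase that opens the DNA around the lesion, had 59 and 58 in HT-29 and 30 and 19 in NCM460. XRCC1, ERCC1 and ERCC2 fell in NCM460, by 0.78, by 1.14 (-1.57 to -0.74) and by 1.08 (-2.04 to -0.26), and no one of these falls was called once the GC trend was subtracted. OGG1, the glycosylase for oxidised guanine, had 12 and 28 fragments in HT-29 and 6 and 7 in NCM460. XPC, the sensor of distorted DNA, had 29 and 49 and then 24 and 36. Both lay above 0 in HT-29 without a call, at 0.86 (-0.03 to 2.10) and 0.49 (-0.17 to 1.24). ERCC1 shares 36.6% of its exon bases with CD3EAP, and XPC 24.9% with other genes.

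Of the 11 homologous recombination genes, 5 fell and 1 rose in HT-29, against 14.8% and 16.8% of all loci, with a median of -0.74. EXO1, the nuclease that resects broken ends, had 25 fragments in the HT-29 control and 3 with SCS, and 6 and 21 in NCM460. The HT-29 control thus had 9.79 times the CPM of the treated library (2.99 to 50.6), whereas the NCM460 log2 change of 1.21 (-0.02 to 2.93) was not called. BARD1, the partner of BRCA1 in its ubiquitin ligase, had 30 and 10 fragments in HT-29 and 5 and 8 in NCM460, and fell by 1.55 in HT-29 (-3.01 to -0.75). BRCA1 itself had 48 and 50 fragments in HT-29 and 20 and 28 in NCM460, at log2 fold changes of -0.16 (-0.77 to 0.43) and 0.01 (-0.87 to 0.92), so neither line gave it a call. RAD54L, a motor that helps strand invasion, had 26 and 10 in HT-29 and 8 and 14 in NCM460, and fell by 1.36 in HT-29 (-2.83 to -0.51). XRCC2 and XRCC3, which assist strand exchange, had 19 and 9 and 23 and 12 fragments in HT-29, and 5 and 8 and 12 and 19 in NCM460. In HT-29 they fell by 1.07 (-2.64 to -0.10) and by 1.00 (-2.31 to -0.10), and XRCC3 shares 45.3% of its exon bases with KLC1.

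The MRN complex, which holds broken ends and activates ATM, was represented by RAD50 and NBN. RAD50 (chr5:132556019-132646344) had 52 fragments in the HT-29 control and 115 with SCS, and 5 and 26 in NCM460, and it rose by 0.88 in HT-29 (0.43 to 1.41) and by 1.72 in NCM460 (0.50 to 3.64). The annotated genes AC116366.3, on the same strand, and TH2LCRR together cover 90.6% of its exon bases, so its count is uncertain. NBN had 47 and 48 fragments in HT-29 and 1 and 17 in NCM460, the highest NCM460 change of the 36 genes, a CPM ratio of 12.2 (1.92 to 512). Both genes lost their NCM460 call with the GC trend subtracted. PALB2, which links BRCA1 to BRCA2, had 24 and 32 fragments in HT-29 and 1 and 8 in NCM460, and its NCM460 ratio of 5.76 had an interval from 0.772 to 256. BRCA2, a mediator of recombination, had 61 and 48 in HT-29 and 10 and 8 in NCM460. Its log2 fold changes of -0.55 (-1.15 to -0.01) and -0.70 (-2.34 to 0.70) were not called, whereas with the GC trend subtracted both were, at -0.83 and -1.96. BLM, a helicase that dissolves joined chromosomes, had 23 and 15 fragments in HT-29 and 3 and 9 in NCM460, and likewise was called lower in HT-29 only with the trend subtracted, at -0.92.

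The mismatch recognition genes MSH6 and MSH3 moved in opposite directions in HT-29. MSH6, which recognises base mismatches, had 108 and 50 fragments in HT-29 and 10 and 35 in NCM460. It fell by 1.29 in HT-29 (-1.86 to -0.85) and rose by 1.25 in NCM460 (0.29 to 2.51), where it was at 0.29 and not called with the GC trend subtracted. MSH3, which recognises larger loops, had 21 and 44 fragments in HT-29 and 3 and 8 in NCM460. It rose by 0.76 in HT-29 (0.05 to 1.66), at 0.61 with the GC trend subtracted and then without a call, and its NCM460 ratio was 1.92 (0.461 to 11.2). PMS2, the nuclease subunit of MutLα, had 17 and 24 in HT-29 and 7 and 13 in NCM460 and was not called in either line. PMS2 and CHEK2 have near-identical copies elsewhere in the genome, so their counts are uncertain too. MSH6 shares 21.0% of its exon bases with FBXO11.

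Both subunits of the Ku ring, the first protein on a broken end in end joining, fell in HT-29. XRCC6, which encodes Ku70, had 388 and 228 fragments in HT-29 and 300 and 385 in NCM460, with log2 fold changes of -0.99 (-1.24 to -0.76) and -0.11 (-0.34 to 0.11). XRCC5 (chr2:216107464-216206303), which encodes Ku80, had 384 and 258 in HT-29 and 61 and 218 in NCM460. It fell by 0.80 in HT-29 (-1.04 to -0.57) and rose by 1.35 in NCM460 (0.95 to 1.80), and the rise was still called with the GC trend subtracted, at 0.78. In the HT-29 control the pair had nearly the same number of fragments, and in the NCM460 control XRCC6 had several times those of XRCC5. XRCC4, which holds the ligase of this pathway, had 10 and 8 fragments in HT-29 and 3 and 4 in NCM460, and was not called in either line.

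Damage signalling and checkpoint genes had 3 falls and no rise among 7 in HT-29, and 4 rises and 1 fall in NCM460. Of all loci, 14.8% fell and 16.8% rose in HT-29, and 15.4% rose and 13.8% fell in NCM460. With the GC trend subtracted 0 of the 7 rose and 1 fell in NCM460, against 6.16% and 5.64% of loci. CHEK2, the effector kinase downstream of ATM, had 22 and 9 fragments in HT-29 and 10 and 13 in NCM460, and fell by 1.26 in HT-29 (-2.82 to -0.35). RAD18, a ubiquitin ligase of damage tolerance at stalled forks, had 27 and 11 in HT-29 and 2 and 14 in NCM460, and fell by 1.31 in HT-29 (-2.69 to -0.47). Its NCM460 CPM ratio was 5.04 (1.16 to 45.7), and this rise lost its call once the GC trend was subtracted. MDC1, the adaptor that binds phosphorylated histone H2AX, had 96 and 71 fragments in HT-29 and 86 and 64 in NCM460, and fell by 0.65 (-1.13 to -0.21) and by 0.89 (-1.39 to -0.42). MDC1 is listed under an alternate-haplotype identifier in the deposited table, and its NCM460 fall lost the call once the GC trend was subtracted.

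The large kinases ATM and ATR were not called in HT-29. ATM had 117 and 206 fragments in HT-29 and 13 and 51 in NCM460. Its log2 fold change in HT-29 was 0.57 (0.25 to 0.92), just under the 1.5-fold line, while the FPKM values deposited by the authors were 21.3 in the control and 12.1 with SCS and so point the other way. ATR had 72 and 65 fragments in HT-29 and 4 and 27 in NCM460, at -0.36 (-0.89 to 0.12) and 2.03 (0.76 to 4.26). With the GC trend subtracted ATR was at -0.58 (-1.10 to -0.09) in HT-29, just short of a call. TP53BP1, which protects broken ends from resection, had 150 and 201 in HT-29 and 17 and 47 in NCM460, at 0.19 (-0.12 to 0.51) and 0.95 (0.17 to 1.89), and 28.9% of its exon bases are shared with TUBGCP4. ATM, ATR and TP53BP1 rose in NCM460, ATM by 1.43 (0.60 to 2.50), and all 3 lost the call with the GC trend subtracted, at 0.32, 1.00 and 0.57. CHEK1, the effector kinase of ATR, has no value of its own, since the table lists it with the same values as STT3A. That locus had 428 and 590 fragments in HT-29 and 120 and 127 in NCM460, at 0.23 (0.05 to 0.41) and -0.39 (-0.76 to -0.02), and it was called lower in NCM460 only with the GC trend subtracted, at -1.01.

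**Figure D2:**
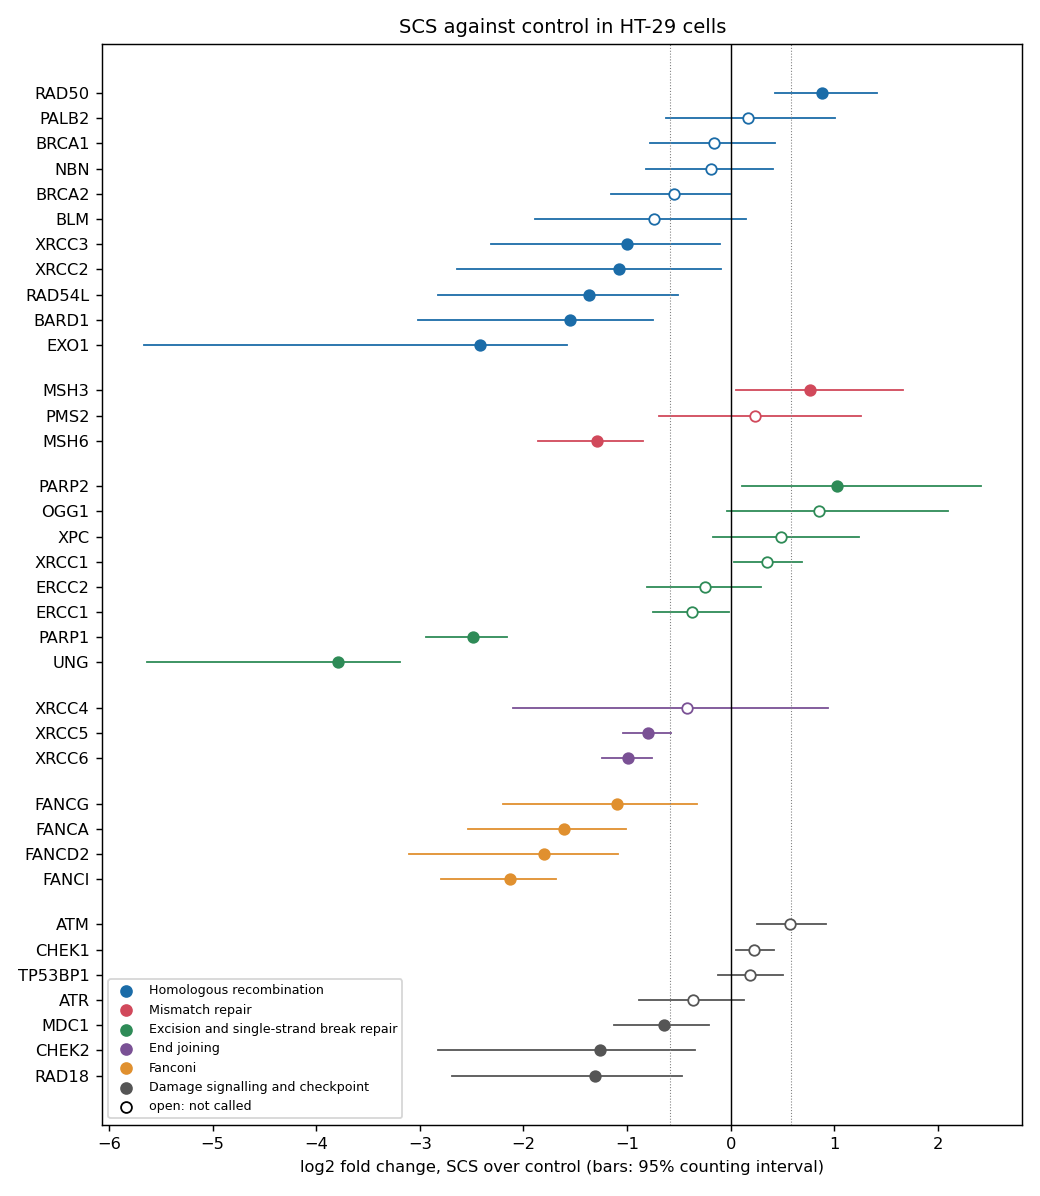
Log2 fold change with SCS in HT-29 for each gene, with its 95% counting interval; filled points were called and dotted lines mark 1.5-fold. The 4 Fanconi genes, UNG, PARP1 and EXO1 lie below -1.0, and RAD50, PARP2 and MSH3 are the 3 filled points above 0.

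Since several of these genes are known targets of E2F factors, their promoters were searched for E2F letters. RefSeq promoter windows on GRCh38.p14, from 250 bases before the gene start to 50 after it, were at hand for 33 of the 36 genes. The letters TTTGGCGC, TTTCCCGC, TTTCGCGC or TTTGCCGC, on either strand, were in 9 of the 33 windows (27.3%) and in 3.33% of all 27305 promoters of the same length. They were in 6 of the 15 genes with a window that fell in HT-29 (40%) and in 3 of the other 18 (16.7%). The BRCA1 window, chr17:43170278-43170577, lies outside the BRCA1 gene of the deposited table, chr17:43044295-43125483. The start of BRCA1 as listed there was thus not searched, though BRCA1 counts among the 18 as a window without a match. The windows of MSH6, RAD50, XRCC1, ERCC1, ERCC2, ATM, CHEK1, CHEK2 and RAD18 likewise left out the start listed there. For MSH6, which had a match, the window was chr2:47782895-47783194 and the listed start 47695530. The windows of the others had no match. MDC1 is listed on an alternate haplotype, so its window could not be compared with its listed start. The 9 matches are shown in windows of 30 bases on the gene's own strand, with the letters in capitals, to let the matches be compared between genes that fell and genes that did not. A match is a description of the sequence and not a binding site. The genes that fell come first.
XRCC2, chr7:152676102-152676131, minus strand: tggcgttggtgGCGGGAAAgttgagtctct
EXO1, chr1:241848197-241848226, plus strand: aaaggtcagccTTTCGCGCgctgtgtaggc
MSH6, chr2:47783137-47783166, plus strand: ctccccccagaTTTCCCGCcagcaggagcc
XRCC6, chr22:41621315-41621344, plus strand: tgtccaagttggtcgcttccctGCGCCAAA
FANCA, chr16:89816801-89816830, minus strand: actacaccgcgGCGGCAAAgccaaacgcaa
FANCD2, chr3:10026424-10026453, plus strand: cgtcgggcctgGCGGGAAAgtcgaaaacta
MSH3, chr5:80654536-80654565, plus strand: gcggtcaagTTTGGCGCGAAAttgtggccg
PMS2, chr7:6009131-6009160, minus strand: cgggaagtattTTTGCCGCcccgcccggaa
XPC, chr3:14178822-14178851, minus strand: cctgcgcccTTTCCCGCctctcgcgagaac
The MSH3 window holds 2 overlapping matches, 1 on each strand. In XRCC2, EXO1, MSH6 and XRCC6 the match lay after the gene start, and in FANCD2, FANCA, MSH3, PMS2 and XPC it began 2, 172, 107, 43 and 241 bases before it, so that the FANCD2 match spans the start. UNG and PARP1 had windows without a match. The CHR element, searched as TTTGAA and TTCGAA on both strands, was in 12.1% of the 33 windows and 16.6% of all promoters, and CCAAT, on both strands, was in 54.5% and 35.7%. In 0 of these windows did an E2F match share bases with a CHR or CCAAT match.

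Proliferation genes also fell in HT-29. Of 17 such genes (replication licensing factors, cyclins, nucleotide synthesis enzymes and E2F1), 16 fell and 0 rose there, against 14.8% and 16.8% of all loci. Their median log2 fold change was -2.09 and their summed level 1452 and 325 CPM. PCNA, MCM2, MCM3, MCM4, MCM5, MCM6, E2F1, CCNE1 and CCNB1 are on a list of genes that the study chose from these same libraries. Their falls, and with them the count of 16, are not independent of that choice. The replication clamp PCNA had 216 and 38 fragments in HT-29 and 55 and 91 in NCM460, and MKI67, the gene of the Ki-67 antigen, had 523 and 143 and then 136 and 159. In NCM460 5 of the 16 compared rose and 2 fell, against 15.4% and 13.8% of all loci. The median there was 0.10 and the summed level was 1343 and 1299 CPM. With the GC trend subtracted 2 of these rose and 0 fell in NCM460, against 6.16% and 5.64% of loci, with a median of 0.0032. Whether the falls of the repair genes in HT-29 follow from fewer dividing cells was not tested, and in bulk RNA fewer cells of a kind and less RNA per cell cannot be told apart.

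**Figure D3:**
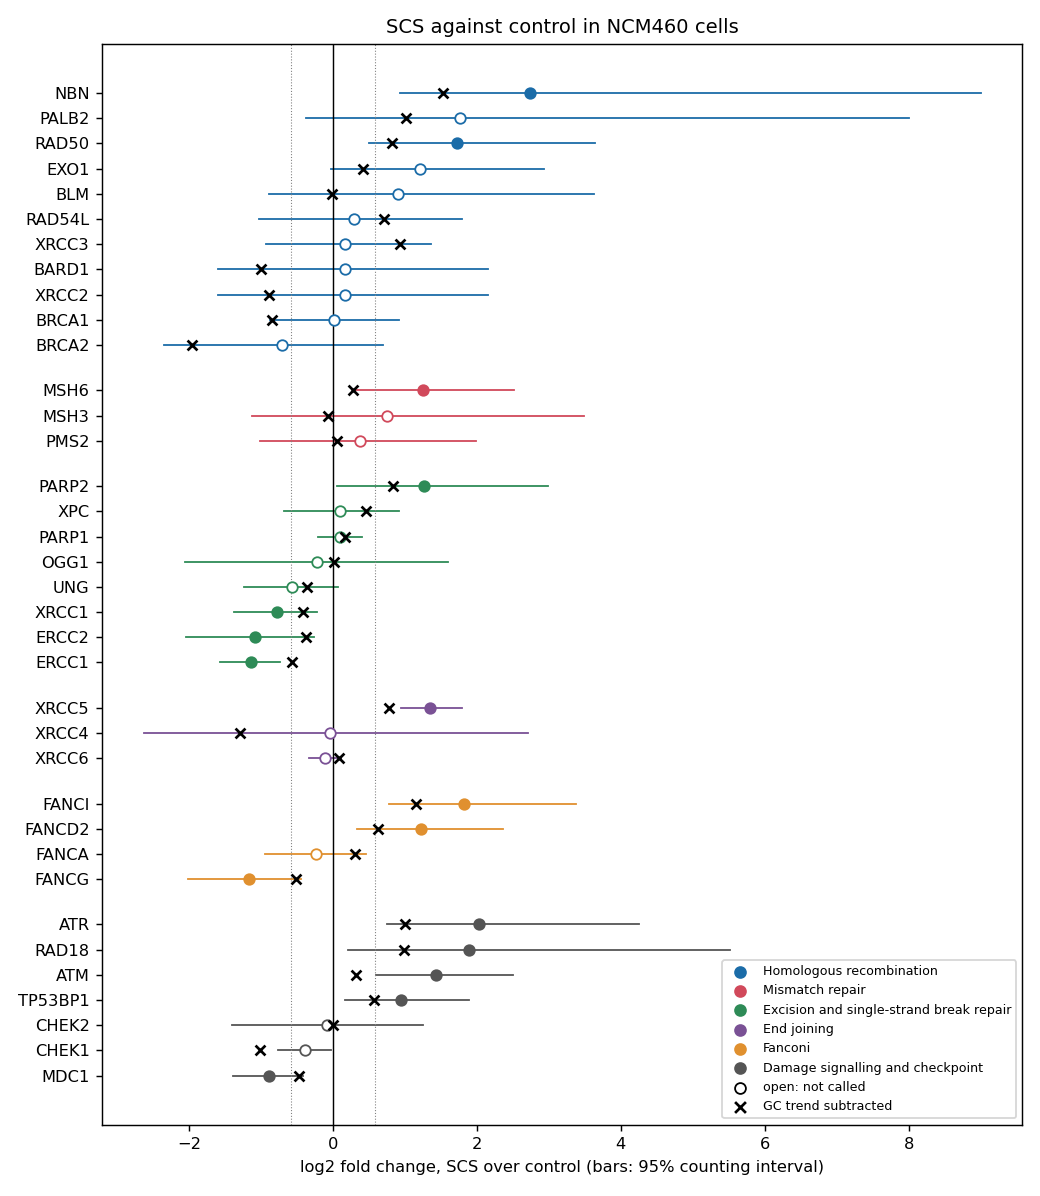
Log2 fold change with SCS in NCM460, with 95% counting intervals, filled points for called genes and black crosses for the value after the GC trend was subtracted. The crosses lie nearer to 0 than the points for all 16 called genes, 14 of which lost the call, and intervals of genes with 1 to 5 control fragments, such as NBN at 1 and 17, are wide.

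The GC content of the longest transcript ran from 36.3% to 63.8% over the 36 genes, with a median of 44.1% beside 48.9% for the loci compared in NCM460. Across genes, which share their library and are not independent replicates, Spearman's rho between GC content and the NCM460 change was -0.55 over the 36 genes and -0.63 over 12595 loci. In HT-29 it was -0.07 and -0.12. Of the 18 genes below the median GC content, 8 rose and 0 fell in NCM460, with a median log2 fold change of 1.22, and of the other 18 genes 3 rose and 5 fell, with a median of -0.10. With the trend subtracted these medians were 0.30 and 0.07. In HT-29 the medians of the same groups of genes were -0.49 and -0.72.

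**Figure D4:**
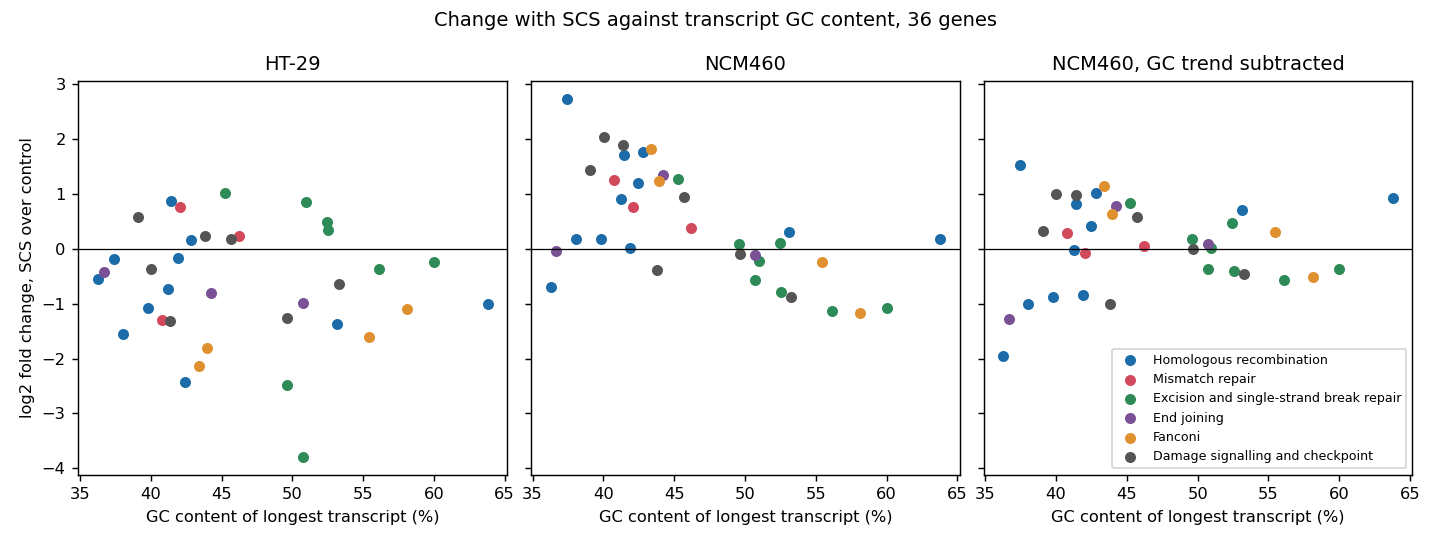
Log2 fold change with SCS against GC content of the longest transcript (%), 36 genes coloured by pathway, in HT-29, in NCM460 and in NCM460 after the GC trend of all loci was subtracted. In the middle panel the low-GC genes lie high (rho -0.55), and in the left panel no such slope is seen (rho -0.07).

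Set side by side, 5 genes fell in HT-29 and rose in NCM460, namely MSH6, XRCC5, FANCD2, FANCI and RAD18. Another 10 fell in HT-29 without a call in NCM460, FANCG and MDC1 fell in both, RAD50 and PARP2 rose in both, and no gene rose in HT-29 and fell in NCM460. With the GC trend subtracted from the NCM460 values only, XRCC5 and FANCI were the 2 genes still called in opposite directions, and 15 genes fell in HT-29 with no call in NCM460. FANCI and XRCC5 were also the 2 NCM460 rises that held under each of the 14 alternatives run on that line. In HT-29 the falls of BARD1, MSH6, PARP1, UNG, FANCD2 and FANCI held under each of 14. By the deposited FPKM, the sign of the NCM460 change was reversed for RAD50, MSH6, FANCD2 and ATM, and no gene called in HT-29 changed sign.

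**Figure D5:**
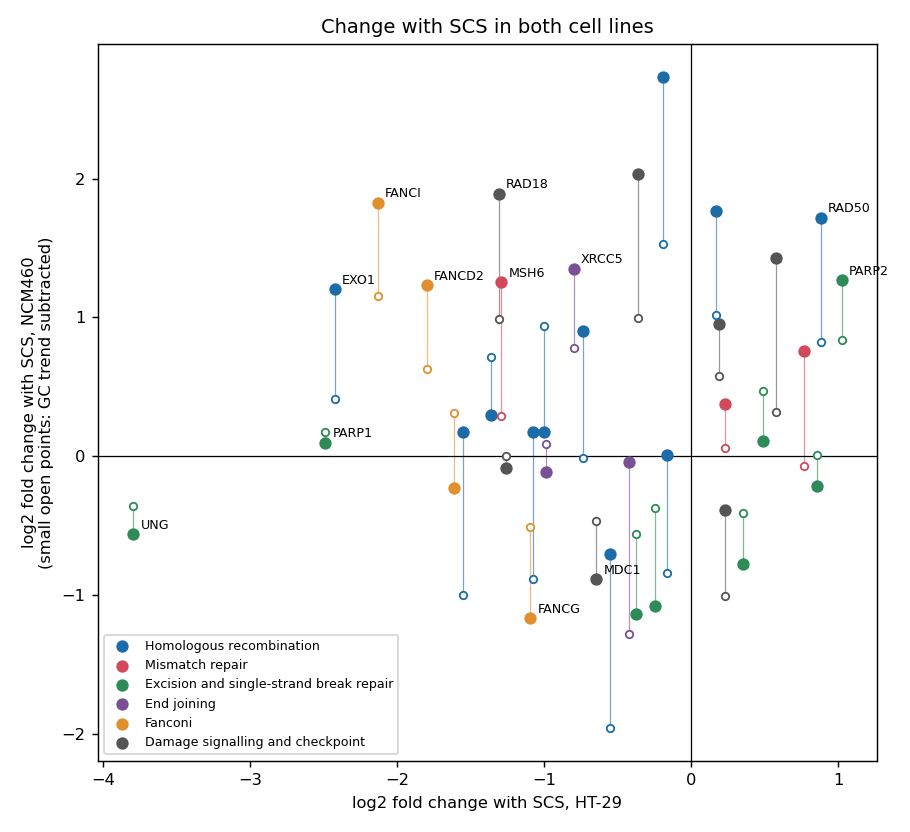
Log2 fold change with SCS in NCM460 against that in HT-29 for the 36 genes, filled as measured and small open points joined to them after subtraction of the GC trend in NCM460. FANCI, FANCD2, RAD18, MSH6 and XRCC5 lie at the upper left (lower in HT-29, higher in NCM460). UNG and PARP1 lie far left, at -0.56 and 0.10 in NCM460, and neither was called there.

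The control libraries of the lines also differed, with 1 library each. Per transcript length, on the FPKM scale deposited by the authors, the highest levels in the HT-29 control were those of the CHEK1 locus at 77.6, XRCC6 at 71.0 and XRCC5 at 46.6, and in the NCM460 control those of XRCC6 at 211, ERCC1 at 89.6 and the CHEK1 locus at 85.3. In CPM, 5 genes were called higher in NCM460 than in HT-29 and 11 lower, against 23.1% and 25.3% of 12691 loci. The 5 were ERCC1, XPC, XRCC6, FANCG and MDC1, at log2 differences of 1.34, 1.05, 1.02, 1.64 and 1.21. The lowest was NBN, with 47 fragments in the HT-29 control and 1 in the NCM460 control, a ratio of 17.9 (3.06 to 722) in favour of HT-29, followed by FANCI and ATR at log2 differences of -2.79 and -2.51. The differences of these genes went with GC content (rho 0.77 over 36 genes, 0.51 over all loci), and with that trend subtracted 5 genes were higher and 4 lower, against 18.7% and 19.1% of loci. XPC, at 0.71, was then no longer among the higher genes and BRCA1, at 1.11, was. With total counts alone 0 genes were higher in NCM460 and 24 lower, where 1106 of 12467 loci were higher and 6326 lower. With the GC trend subtracted, the 4 lower genes were FANCI, at -2.01, NBN, ATR and TP53BP1. The low NCM460 control level of FANCI is the denominator of its rise with SCS, in which it reached 35.1 CPM, beside 69.9 CPM in the HT-29 control.

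Another 107 genes of the same pathways were compared in each line. In HT-29, 12 rose and 24 fell with a median of -0.21, against 16.8% and 14.8% of all loci. In NCM460 19 rose and 12 fell with a median of 0.29, against 15.4% and 13.8% of all loci. Once the GC trend was subtracted in NCM460, 4 rose and 4 fell with a median of 0.07, against 6.16% and 5.64%. Fanconi genes gave 5 falls and 0 rises of 13 in HT-29. The lowest among those averaging 5 CPM or more was FANCL, the ubiquitin ligase of the core complex, at 39 and 21 fragments and -1.02 (-1.96 to -0.32). The highest at that level, FANCF, was not called at 20 and 40 fragments. Damage signalling gave 6 falls and 1 rise of 23 in HT-29, and CLSPN, the adaptor through which ATR activates CHEK1, dropped from 61 to 7 fragments, and fell by 2.89 on the log2 scale (-4.73 to -2.23). The highest there among genes averaging 5 CPM or more, FAM175A, had 10 and 17 fragments and was not called.

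Other pathways were mixed in HT-29, where 16.8% of all loci rose and 14.8% fell. The extremes named here are those among genes averaging 5 CPM or more. Homologous recombination gave 7 falls and 3 rises of 27. At that level they ran from DNA2, a resection nuclease, at 25 and 6 fragments (-1.84) to SWI5, a recombination cofactor, at 10 and 30 (1.16). Under that level RAD51AP1 was lower still, at -2.26, and HELQ higher still, at 1.63. In mismatch repair PMS1, a relative of PMS2, rose from 9 to 30 fragments (1.28). In end joining 2 fell and 3 rose of 8. POLQ, the polymerase of the microhomology route, went from 42 to 11 fragments (-1.90) and POLL, a gap-filling polymerase, from 7 to 42, with a log2 interval of 1.19 to 3.75. Excision repair gave 3 falls and 4 rises of 32, from FEN1, the flap nuclease, at 157 and 26 (-2.69, in a locus with FADS2) to ERCC5, a nuclease of nucleotide excision, at 63 and 156 (1.05, in a locus with BIVM).

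In NCM460 the named extremes of the same lists mostly had few control fragments. USP1, which removes ubiquitin from FANCD2, had 1 and 21 fragments and was still called higher with the GC trend subtracted. WRN, a recombination helicase, with 1 and 14 fragments, MLH3, a mismatch repair nuclease, with 3 and 25, GTF2H3, a subunit of TFIIH, with 3 and 27, and PRKDC, the kinase that Ku recruits, with 102 and 276, rose and lost the call with the trend subtracted. FAM175A, also known as ABRAXAS1, had 0 and 13 fragments and was called higher, but not with the trend subtracted. At the other end RECQL5 had 20 and 11 fragments, NEIL2 22 and 12 and H2AFX, the histone phosphorylated at breaks, 238 and 137, and these 3 fell without holding the call. C9orf142, an end joining factor, with 10 and 7 fragments was not called, and FANCL with 7 and 3 was called lower only with the trend subtracted, at -2.43.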

How the data were processed

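RNA was sequenced from 4 libraries (1 a condition) made with a non-directional NEBNext Ultra kit. Per the labels, the submitters' processing notes name bcl2fastq 2.17.1.14, cutadapt 1.9.1, Bowtie2, HTSeq 0.6.1 and hg19, while 93.3% of gene identifiers had the GRCh38 coordinates of GENCODE 29. The deposited values, a signal made by the authors as fragments divided by a factor for each library, gave back whole fragments for at least 99.9% of values above 0 (within 0.1 of a fragment). The deposited FPKM were an alternative measure only. Rows without a gene name held up to 0.0352% of fragments and were left out.

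Adjacent genes with identical values were merged into 1 locus (1812 loci of more than 1 gene). TMM factors (edgeR 4.0.16) gave CPM, and loci averaging 1 CPM or more in the pair compared were kept, which all 36 genes passed. Intervals are exact binomial ones. The GC trend is a lowess fit (span 0.3). Calculations ran in Python 3.11.15 and were tested on simulated counts. Alternatives were other scalings, priors, trends, depths, filters, thresholds and FPKM, and 1 chosen after the data were seen (genes with little exon overlap). Genes, lists and motifs were chosen with earlier results of these data known. Members called in either line, pathway extremes, and the highest and lowest of each other list, at 5 CPM or more on average, are named. Some genes of the other lists are not reported here.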

Additional observations from a re-analysis of the deposited data

Results flagged for a closer look

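In 5 genes the call went in opposite directions in the lines, lower with SCS in HT-29 and higher in NCM460. The log2 fold change in NCM460 minus that in HT-29 was 3.96 for FANCI, 3.20 for RAD18, 3.03 for FANCD2, 2.55 for MSH6 and 2.15 for XRCC5. With 1 library a condition the difference between the lines was not tested. After the GC trend was subtracted only FANCI and XRCC5 were still called in both lines, and by the deposited FPKM MSH6 and FANCD2 were lower with SCS in NCM460 as well. The MSH6 locus has 21.0% of its exon bases in other genes, and the NCM460 control had 2 fragments of RAD18 and 7 of FANCI.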

How the results depend on the processing

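No paired analysis was possible because each condition had 1 library, and for the same reason no library could be left out. In HT-29, 7 genes were called higher with total counts alone, 1 with mitochondrial fragments left out of the totals and 1 at a 2-fold threshold (3 as reported), and 10 were called lower with nuclear fragments thinned to equal depth (17 as reported). In NCM460, 2 were called higher with the GC trend subtracted and 7 by FPKM (11 as reported). Called lower there were 0 with total counts alone, 2 with the GC trend subtracted, 3 with the expression trend subtracted, 3 at 2-fold, 3 among genes with little exon overlap and 14 by FPKM (5 as reported), and the median by FPKM was -0.24. By FPKM 2822 of all 12657 loci compared in NCM460 were higher and 4652 lower, with a median of -0.27, so the genes were near the background there. Reversed in NCM460 by FPKM were RAD50 (-0.69), MSH6 (-0.25), FANCD2 (-0.34) and ATM (-0.48). Between the control libraries of the lines, total counts alone gave 0 higher, 24 lower and a median of -1.28, with XRCC6 at -0.0747. With the GC trend subtracted 4 were lower there and BRCA2 was at 0.29. Total counts alone also moved the median of all loci, to 0.31 in HT-29, 0.65 in NCM460 and -1.12 between the controls, and took the share of falls among all calls from 46.9% to 26.2% in HT-29 and from 47.3% to 5.91% in NCM460. The causes of these changes were not tested. The other called genes kept their direction under the alternatives run, but all 3 rises and 11 of the 17 falls in HT-29, and 9 of the 11 rises and all 5 falls in NCM460, lost the call under at least 1 of them. Depth widens the intervals of genes such as XRCC4, PALB2 and BLM, with 1 to 3 fragments in the NCM460 control, where 3 fragments correspond to 3.85 CPM.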
